A study of Mus musculus with 8 samples.

Results

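Expression of 9 genes of myelin and oligodendrocyte maturation (Mbp, Cnp, Mal, Mog, Mag, Gal3st1, Fa2h, Ugt8a and Opalin) was examined in neurospheres grown from the adult mouse hippocampus. The genes were chosen by name for their known roles, with earlier results of these data known. Their probes were found by matching each probe's transcript accession to a RefSeq gene symbol. They stand among 18350 genes with a probe on the array, of which 13305 had a probe bright enough to be tested; 7 of the 9 genes were among those tested, and Mog and Opalin were not. The study measured the effects of losing Sirt1, an NAD-dependent deacetylase, and of resveratrol, a plant polyphenol used as a SIRT1 activator, each against its own control. Each of the 4 groups had 2 one-colour arrays of Cy3-labelled total RNA, 8 arrays in all.

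All groups were secondary neurospheres, free-floating clusters of cells grown again from dissociated primary spheres, from the hippocampus of mice aged 7 to 9 weeks. The WT and Sirt1 KO groups were both of the labelled strain 129/ICR and were harvested after 6 days of secondary culture. In both of these groups replicate 1 came from female and replicate 2 from male mice. The DMSO and resveratrol groups were both WT, C57BL/6 and male, and were cultured for 5 days and then exposed for 24 hours to DMSO, the solvent, or to resveratrol at a dose that the labels write as 10 mm. Every group had passed through a primary culture of 7 to 9 days with bFGF, EGF and PDGFbb at 10 ng/ml each, and the secondary culture held bFGF and EGF at 20 ng/ml each without PDGFbb. The labels do not give the Sirt1 allele or any driver of its deletion, nor whether replicates were separate cultures or animals, so the p-values below measure only the spread between these samples. These are cultures kept in proliferation medium rather than a differentiation protocol, so the levels below are those of myelin genes in sphere cells, not in myelinating tissue.

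Oligodendrocytes arise from precursor cells that leave the cell cycle, switch on a lipid-synthesis and membrane-protein programme and wrap axons in compact myelin. Cnp appears early in that sequence, Mbp, Mag and Mal with membrane sheet formation, and Mog and Opalin late, in mature cells. Myelin is also rich in galactolipids: Ugt8a adds galactose to ceramide to make galactosylceramide, Fa2h hydroxylates the fatty acid that the ceramide carries, and Gal3st1 sulfates galactosylceramide to sulfatide.

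RefSeq promoters (GRCm38.p6) were given for 7 of the 9 genes, at 11 start sites. The windows reach from 250 bases before the start to 50 after it, and the 250 bases before the start are printed here for 3 sites: Cnp and Gal3st1, both of which read apart in the groups of each arm, and Mag, which shares 2 motifs with Cnp and whose groups overlapped. Capitals mark letters that match ACAAAG, a SOX-type motif, or CTGGCAC, a MYRF-type motif, on either strand. The windows are chr11:100574689-100574938 on the plus strand for Cnp, chr7:30914864-30915113 on the minus strand for Mag, and chr11:3983386-3983635 on the plus strand for Gal3st1.
Cnp: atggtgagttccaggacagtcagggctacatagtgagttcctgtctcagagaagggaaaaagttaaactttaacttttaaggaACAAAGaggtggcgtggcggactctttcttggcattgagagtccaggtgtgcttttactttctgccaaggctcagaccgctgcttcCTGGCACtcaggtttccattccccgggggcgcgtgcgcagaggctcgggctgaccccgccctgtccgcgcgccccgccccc
Mag: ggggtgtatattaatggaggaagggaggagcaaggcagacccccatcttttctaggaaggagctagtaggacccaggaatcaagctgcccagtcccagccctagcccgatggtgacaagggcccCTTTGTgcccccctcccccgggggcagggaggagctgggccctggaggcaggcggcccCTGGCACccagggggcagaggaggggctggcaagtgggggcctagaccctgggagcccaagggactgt
Gal3st1: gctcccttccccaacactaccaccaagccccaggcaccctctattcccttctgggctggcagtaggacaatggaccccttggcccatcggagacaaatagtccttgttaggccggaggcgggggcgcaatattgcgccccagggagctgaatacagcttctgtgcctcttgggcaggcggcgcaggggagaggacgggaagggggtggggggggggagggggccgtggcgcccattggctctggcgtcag

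In Cnp, ACAAAG began at position -167 and CTGGCAC at -81, counted from the start site. In Mag, the reverse complement of ACAAAG began at -126 and CTGGCAC at -68. The Gal3st1 window held no match to any of the motifs searched. Of the 11 member promoters, CTGGCAC was found in 4, from 3 genes (Cnp, Mag and Opalin), against 5.01% of 32851 promoters of the same length. ACAAAG was also found in 4, from the same 3 genes, against 18.7%. Mag counts at 2 start sites whose windows overlap and hold the same matches. The CTGGCAC match of Opalin began at position 37, after the start. The other motifs searched on both strands were CTGGTAC (in Mog, 2.24% of all promoters), CAGCTG and CAGATG (both E-boxes, each in Opalin, 16.3% and 17.2% of all), AACAAT (10.7% of all) and TGACCT (16.3% of all), the last 2 in no member. CAGCTG reads the same on both strands. These matches describe letters in a window and not binding.

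A level below is the log2 of the array's processed signal minus the log2 of that array's 75th percentile, so 0 is the brightness of that percentile and each unit is a doubling. A probe is called well above background where the scanner software flagged it so on that array. Across the arrays 53.0% to 72.0% of probes were well above background, and the 75th percentile of signal was 740 to 910 in replicate 1 of all groups and 257 to 388 in replicate 2. The arrays lay on 3 slides: WT 1, DMSO 1 and resveratrol 1 on the first, Sirt1 KO 1, DMSO 2 and resveratrol 2 on the second, and WT 2 and Sirt1 KO 2 on the third. The third slide was scanned on a different day from the other slides. Sirt1 itself read 0.12 and 0.13 in WT and 0.36 and -0.12 in Sirt1 KO, a difference of 0 (SE 0.24). Where its probe lies relative to the deleted part is not known here, so it checks nothing about the labels. All 11 neural stem and progenitor markers measured were well above background on every array, whereas 7 of 11 microglial markers, Aif1, Cx3cr1, Itgam and Ptprc among them, were so on none.

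Cnp, which encodes the cyclic nucleotide phosphodiesterase of non-compact myelin, read 2.09 and 2.05 in WT and 2.54 and 2.65 in Sirt1 KO. It read 2.51 and 2.56 in DMSO and 2.23 and 1.99 in resveratrol. The Sirt1 KO and DMSO arrays were the higher 4 of the 8, and the WT and resveratrol arrays the lower 4.

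Mal, a raft-associated proteolipid of compact myelin, read -5.20 and -5.32 in WT and -4.66 and -4.21 in Sirt1 KO. It read -4.57 and -4.55 in DMSO and -4.51 and -5.13 in resveratrol. It was dim throughout, and WT 2 and resveratrol 2 were not well above background. The second Mal probe was well above background on none of the arrays.

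Mbp, the major basic protein that holds the cytoplasmic faces of compact myelin together, read -2.06 and -2.25 in WT and -1.30 and -3.09 in Sirt1 KO. It read -1.06 and -1.40 in DMSO and -1.12 and -1.91 in resveratrol. The Sirt1 KO arrays lay on either side of both WT arrays, and all 4 C57BL/6 arrays lay above both WT arrays. Its 3 probes disagreed: the genotype differences in the female and male pairs were 0.76 and -0.84 for the probe used, 1.31 and -0.56 for the second and 0.31 and 0.02 for the third. The second probe was averaged over up to 10 spots an array, while the probe used and the third had 1 spot each. Under resveratrol the second probe gave 0.29 and 1.07 and the third -1.05 and 0.45, against -0.06 and -0.51 for the probe used. No direction is therefore given for Mbp as a gene.

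Mag, an adhesion molecule of the membrane that faces the axon, read -0.43 and 1.23 in WT and 0.29 and 0.82 in Sirt1 KO. It read -0.31 and 0.06 in DMSO and -0.34 and 0.31 in resveratrol. Its replicates lay farther apart within WT than any of its group means did, and all groups overlapped their neighbours in level. A second, dimmer Mag probe was well above background on all 8 arrays. Its genotype differences were 0.12 and -0.41 in the pairs and its resveratrol differences 0.40 and 0.16, against -0.03 and 0.26 for the probe used. In DMSO minus WT it gave -0.49 and -0.50, against 0.13 and -1.18. Mog, a surface glycoprotein of the outermost myelin lamella, was well above background on 0 of the 8 arrays. Opalin, a membrane sialoglycoprotein of mature oligodendrocytes, was well above background on 2, Sirt1 KO 1 and DMSO 2, with processed signals of 20.2 and 13.6. Since neither gene reached that level on both arrays of any group, neither was tested, and the 2 late markers have only a bound in these cultures.

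Of the galactolipid enzymes, Ugt8a read -1.52 and -1.89 in WT and -1.63 and -2.58 in Sirt1 KO. It read -1.87 and -2.20 in DMSO and -2.33 and -2.86 in resveratrol, where both arrays lay below both DMSO arrays. Its second probe had the same directions, with genotype differences of -0.25 and -0.79 and resveratrol differences of -0.50 and -0.57 in the 2 pairs.

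Fa2h read -3.25 and -4.18 in WT and -1.24 and -3.18 in Sirt1 KO. It read -2.06 and -3.43 in DMSO and -2.79 and -4.82 in resveratrol. WT 2 and resveratrol 2 were not well above background, so WT and resveratrol each rest on 1 array that was. Sirt1 KO 2 lay just above WT 1, so the genotype groups stayed apart by little. In every group replicate 1 exceeded replicate 2.

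Gal3st1 read -2.59 and -2.15 in WT and -1.66 and -2.06 in Sirt1 KO. It read -1.76 and -1.69 in DMSO and -2.57 and -2.82 in resveratrol. The DMSO and Sirt1 KO arrays overlapped each other in level, and so did the WT and resveratrol arrays, while neither of the first 2 groups overlapped its own comparison group.

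**Figure D1:**
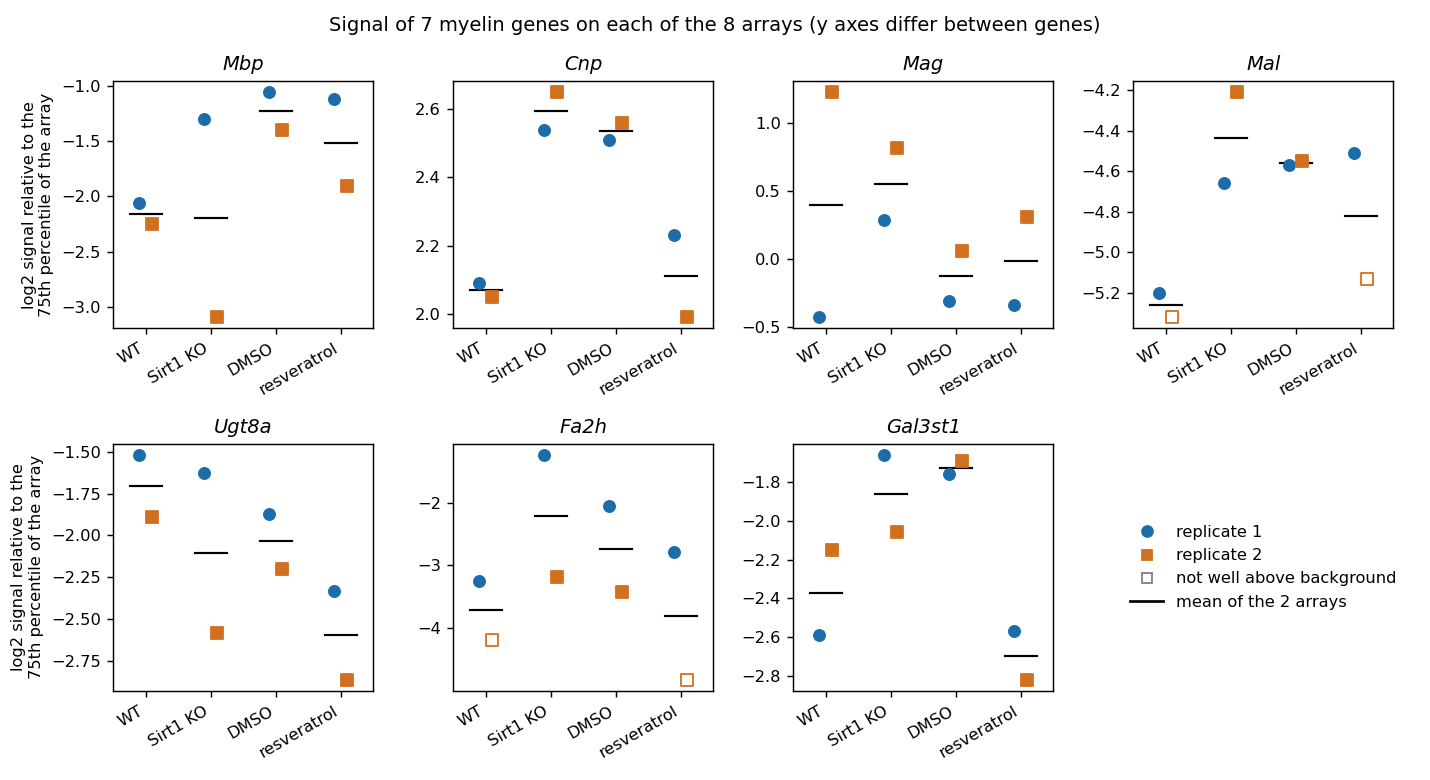
Level of each of the 7 tested members on each array, in log2 units relative to that array's 75th percentile, by group, with 2 arrays a group (circles replicate 1, squares replicate 2) and their mean as a line; open points mark arrays on which the probe was not well above background. Cnp lies at 2.54 and 2.65 in Sirt1 KO and 2.51 and 2.56 in DMSO, above 2.09 and 2.05 in WT and 2.23 and 1.99 in resveratrol.

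The first comparison asked how the absence of Sirt1 bears on these genes. Fa2h, Cnp and Gal3st1 were higher in both Sirt1 KO arrays than in both WT arrays, and no member was lower in that way. The readings of Mal lay in the same order, but it was not well above background on WT 2, where the dimmest probe that was stood at -3.88, above both Sirt1 KO readings of Mal, so its order is not established. Ugt8a was lower in each pair of same-sex arrays, and Mbp and Mag went opposite ways in the female and male pairs. No difference passed the threshold of 0.05 on the adjusted p (limma with Benjamini-Hochberg adjustment over all genes tested), which was 1 for each member. None of the 13305 genes was called either (0%), although 159 had an unadjusted p below 0.05, so the values describe these arrays without a significant change.

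The genotype difference of Fa2h was a log2 difference of 1.51 (SE 0.93, n = 2 a group), with 2.01 in the female and 1.01 in the male pair, where the WT 2 reading was not well above background. It did not hold under another background correction, the normexp model, which gave 0.01 on the raw median signals and 0.82 with 1 background per array. The readings of Mal differed by 0.83 (SE 0.47), with 0.54 and 1.11 in the pairs, the latter against WT 2. Cnp differed by 0.53 (SE 0.21), with 0.45 and 0.60. The Gal3st1 difference of 0.51 (SE 0.30) came mostly from the female pair, 0.93 against 0.09 in the male pair. Only the male pair lay on a single slide and only its values are within-slide ones. Ugt8a differed by -0.40 (SE 0.40; -0.11 and -0.69), Mag by 0.16 (SE 0.55; 0.72 and -0.41) and Mbp by -0.04 (SE 0.59; 0.76 and -0.84).

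Over the 7 tested members the median genotype difference was 0.51, against -0.04 over all genes tested, with medians of 0.72 in the female and 0.09 in the male pair. With normexp on the raw median signals it became -0.11, and Mal and Gal3st1 turned to -0.86 and -0.11, while Cnp was at 0.77. The 4 members higher without overlap in their readings, Mal included, compare with 7.11% of all genes, and the 0 lower with 7.85%. Higher in both pairs were the same 4 members, against 22.3% of all genes, and lower in both was Ugt8a, against 34.2%. Fa2h and Mal were well above background on both arrays only in Sirt1 KO and DMSO. They were thus tested only through groups in which they read higher, and their part in these counts and in the median supports no rise. With probes well above background on all 8 arrays, which leaves both out, the members' median was 0.16.

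With a term for the replicate number, which is also the sex in this arm, the adjusted p was 0.105 for Fa2h, 0.133 for Cnp, 0.405 for Gal3st1 and 0.411 for Mal. That model called 0.158% of all genes higher and 0.0376% lower, and no member among them. With the slide as the term instead, it was 0.507 for Fa2h and 0.531 for Cnp.

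The second comparison asked what 24 hours of resveratrol did in WT C57BL/6 cultures. Gal3st1, Ugt8a and Cnp were lower in both resveratrol arrays than in both DMSO arrays. Fa2h was lower within each slide but overlapped between groups, and no member was higher in both pairs by the probe that stood for it. No member passed the threshold (adjusted p of 1 for each), nor did any of the 13305 genes (0%), of which 201 had an unadjusted p below 0.05.

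The Gal3st1 difference was -0.97 (SE 0.30, n = 2 a group), or 1.95-fold lower, with -0.81 on the first slide and -1.12 on the second. Fa2h differed by -1.06 (SE 0.93; -0.73 and -1.39), Ugt8a by -0.57 (SE 0.40; -0.47 and -0.67) and Cnp by -0.42 (SE 0.21; -0.27 and -0.57). Resveratrol 2 was not well above background for Fa2h. With normexp on the raw median signals and with 1 background per array the differences were smaller for Gal3st1 (-0.56 and -0.53), Fa2h (-0.27 in both) and Ugt8a (-0.21 and -0.19), and -0.47 in both for Cnp. All 3 galactolipid enzymes among the members thus read lower on both slides. The remaining differences were small beside their errors: -0.26 for Mal (SE 0.47), -0.28 for Mbp (SE 0.59) and 0.11 for Mag (SE 0.55). Each pair here shared a slide, so both pair values are within-slide values.

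The members' median was -0.42, against 0.01 over all genes, with -0.27 and -0.57 in the 2 pairs. The 5 members lower in both pairs include Mbp only by the probe used, and Fa2h, which was tested only through Sirt1 KO and DMSO. They compare with 32.2% of all genes, and the 0 higher with 36.7%. The 3 lower without overlap compare with 8.71%, and the 0 higher with 10.3%. With the replicate term, here also the slide, 0.376% of all genes were called higher and 0.0526% lower, and no member was. The adjusted p was then 0.148 for Gal3st1, 0.188 for Cnp, 0.202 for Fa2h and 0.282 for Ugt8a.

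**Figure D2:**
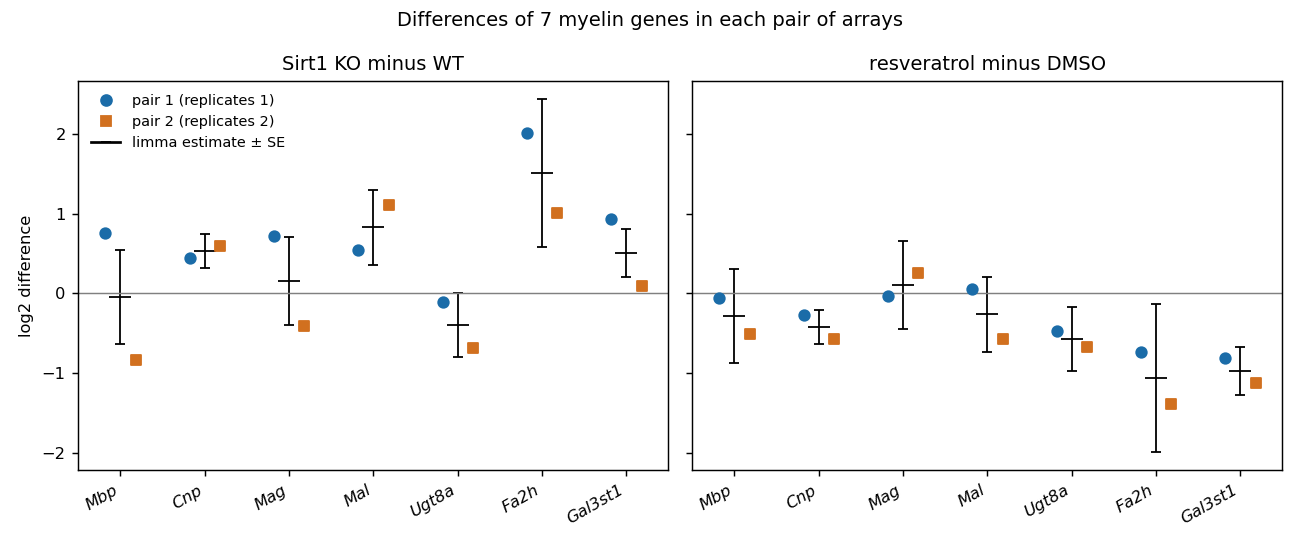
Log2 difference of each tested member (vertical axis) in Sirt1 KO minus WT and in resveratrol minus DMSO, with the standard error of the fit as a bar and the pair differences as a circle (pair 1) and a square (pair 2). Fa2h, Cnp and Gal3st1 sit above 0 for Sirt1 KO minus WT (1.51, 0.53 and 0.51) and below 0 for resveratrol minus DMSO (-1.06, -0.42 and -0.97).

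Fa2h, Cnp and Gal3st1 were higher in both Sirt1 KO pairs and lower in both resveratrol pairs, 3 of the 7 tested members against 6.16% of all genes. Fa2h is in that count although it was tested only through Sirt1 KO and DMSO, the groups in which it read higher. Ugt8a was lower in both pairs of both comparisons, as were 12.1% of all genes. The difference between the genotype and the resveratrol differences was 2.57 for Fa2h (SE 1.32), 1.48 for Gal3st1 (SE 0.42) and 0.95 for Cnp (SE 0.30). With normexp on the raw median signals it was 0.28, 0.45 and 1.24. Its adjusted p was 1 for each, and 0% of all genes were called, 125 of them with an unadjusted p below 0.05. With the replicate term 0.271% of all genes were called and the adjusted p was 0.0873 for Fa2h, 0.146 for Gal3st1 and 0.098 for Cnp, so the opposite directions did not pass the threshold for any member. These 2 comparisons share no arrays, but they differ in strain and culture history.

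The third comparison set the control groups side by side. DMSO and WT both carried intact Sirt1 but differed in strain, sex makeup, culture timing and solvent. WT 2 also lay on a slide without DMSO arrays and was scanned on another day than they were. These differences cannot be told apart. Cnp and Gal3st1 were higher in both DMSO arrays than in both WT arrays, and no member was lower in that way. So were the readings of Mal, with WT 2 not well above background, and of the Mbp probe used, whereas the other Mbp probes differed by -0.08 (-0.34 and 0.18 in the pairs) and -0.03 (1.29 and -1.35). The differences were 0.92 for the Mbp probe used (SE 0.59), 0.70 for Mal (SE 0.47), 0.65 for Gal3st1 (SE 0.30) and 0.46 for Cnp (SE 0.21). Fa2h was higher by 0.97 (SE 0.93) with overlapping arrays, and Ugt8a and Mag differed by -0.33 (SE 0.40) and -0.53 (SE 0.55).

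None of the members passed the threshold here, with an adjusted p of 0.979 for Cnp and 0.985 for Gal3st1, while 0.0827% of all genes did. With the replicate term Cnp was called higher (adjusted p = 0.0482), among 5.28% of all genes called higher and 6.13% called lower. DMSO and WT arrays are not paired, and that term takes the spread between replicates out of the error of this comparison. Calls made with it here therefore overstate the evidence. With the slide as the term the adjusted p of Cnp was 0.411. The 4 members higher without overlap in these readings include Mal, which was tested only through Sirt1 KO and DMSO. They compare with 12.4% of all genes, and the 0 lower with 13.8%. The median was 0.65, against -0.03 over all genes, and -0.42 with normexp on the raw median signals, where Mal, Gal3st1 and Fa2h turned to -0.97, -0.09 and -0.50. Both this comparison and the genotype one use the WT arrays.

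In order of level, Cnp was highest in Sirt1 KO (mean 2.60, SD 0.08, n = 2) and DMSO (2.53, SD 0.04), which overlapped, and lower in resveratrol (2.11, SD 0.17) and WT (2.07, SD 0.03), which overlapped too. Only the gap of 0.42 between DMSO and resveratrol separated neighbours. For Mal no order is given between resveratrol and WT, each of which held an array not well above background. For the Mbp probe used the one gap of means without overlap was 0.64, between resveratrol and WT. For Gal3st1 it was 0.51, between Sirt1 KO and WT, whose nearest arrays read -2.06 and -2.15. For Fa2h, Ugt8a and Mag every group overlapped the next in order.

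**Figure D3:**
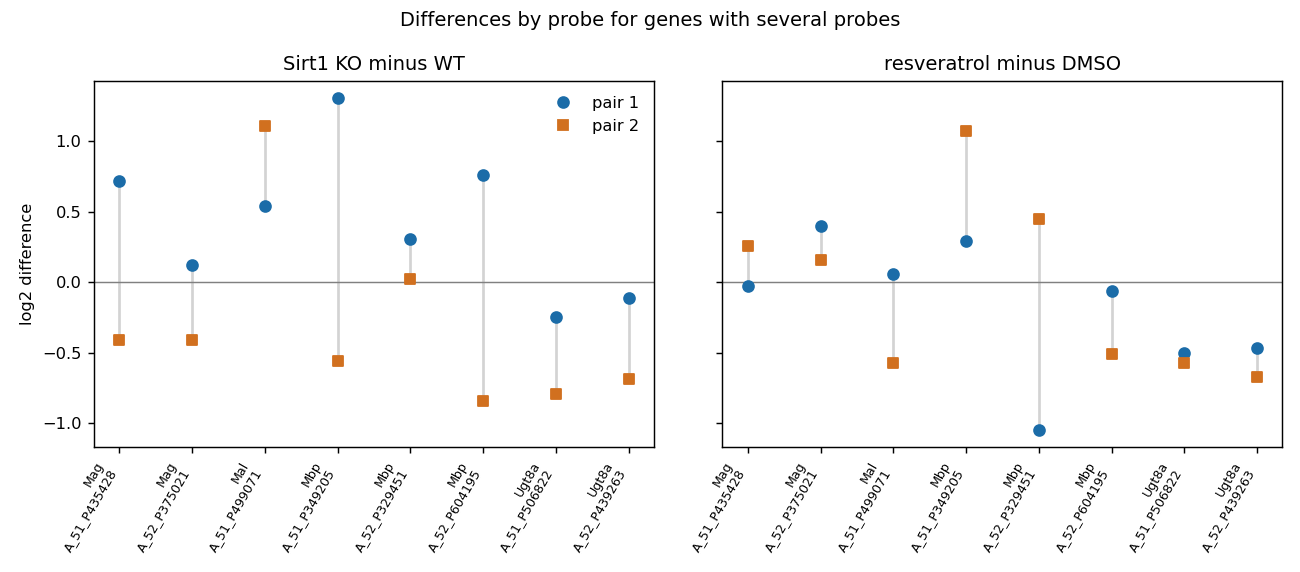
Log2 difference (vertical axis) in each pair of arrays for each probe that passed the brightness filter, for the members with more than 1 probe, in Sirt1 KO minus WT and in resveratrol minus DMSO; circles are pair 1 and squares pair 2. Both Ugt8a probes lie below 0 in both pairs of both comparisons, whereas the Mbp probes scatter on both sides, from 1.31 to -0.84 for genotype.

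Other genes of myelin and mature oligodendrocytes, a list of 41 with a probe, had 35 measured. In Sirt1 KO, 15 were higher and 6 lower in both pairs, against 22.3% and 34.2% of all genes, and the median difference was 0.18 against -0.04 over all genes. In resveratrol, 15 were higher and 11 lower, against 36.7% and 32.2% of all genes, with a median of 0.08 against 0.01. The same shares and medians of all genes apply to the lists that follow. None passed the threshold in any comparison in the model with neither the replicate nor the slide term. Ndrg1, a stress-responsive gene also found in myelinating cells, was at 1.84 in Sirt1 KO (2.47 and 1.2, adjusted p = 0.0807 with the replicate term). It was well above background on 1 of 2 WT arrays, and the difference was 0.02 without Sirt1 KO 1 and 0.66 with normexp on the raw median signals. Tppp3, a tubulin-binding protein, differed by 0.87 (0.11 and 1.64). It too was well above background on 1 of 2 WT arrays, and it turned to -0.71 with normexp on the raw median signals. Pllp, the membrane proteolipid plasmolipin, differed by 0.73 (1.03 and 0.43).

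Under resveratrol the widest differences of that list went both ways. Enpp6, a choline phosphodiesterase of newly formed oligodendrocytes, was at 1.55 (2.46 and 0.65) and Ppp1r14a, a phosphatase inhibitor, at 1.18 (0.96 and 1.41). Gjc3, a glial connexin, was at -1.16 (-0.67 and -1.65). With normexp on the raw median signals these differences were smaller, at 0.58, 0.56 and -0.4. Without normexp, their adjusted p with the replicate term was 0.274, 0.188 and 0.196. In DMSO against WT, 6 of the 35 were called higher and 3 lower with that term, against 5.28% and 6.13% of all genes. These arrays are not paired, so calls with that term overstate the evidence here too. The widest differences were 3.53 for Ndrg1, 2.39 for Trf, the iron carrier transferrin, and -1.45 for Bcas1, a marker of newly myelinating oligodendrocytes (adjusted p = 5.58e-04 with the replicate term). With the slide as the term, Trf differed by 2.31 and Bcas1 by -1.73 (adjusted p = 0.0206 and 0.0258).

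Of 22 other genes of sphingolipid and galactolipid metabolism measured, 7 were higher and 5 lower in both Sirt1 KO pairs, with a median of 0.01. In resveratrol 15 were higher and 4 lower, against 36.7% and 32.2% of all genes, with a median of 0.16 against 0.01, whereas the 3 member enzymes of the galactolipid branch were all lower. Arsa, the lysosomal sulfatase that removes the sulfate Gal3st1 adds, was at 0.76 (0.85 and 0.67) in Sirt1 KO and 0.57 (0.24 and 0.90) in resveratrol. Cers4, a ceramide synthase, and Psap, the precursor of the saposins, were at 0.80 (0.58 and 1.01) and 0.48 (0.46 and 0.50) in resveratrol. None of these passed the threshold, with or without the replicate term.

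The precursor stage was represented by 17 measured genes. In Sirt1 KO 8 were higher and 7 lower in both pairs, with a median of 0.02, and in resveratrol 1 was higher and 14 were lower, against 36.7% and 32.2% of all genes, with a median of -0.45 against 0.01. Gpr17, a receptor of committed precursors, was at 1.65 (2.23 and 1.07) in Sirt1 KO and -1.46 (-1.16 and -1.77) in resveratrol. Of 35 regulators of differentiation, 5 were higher and 23 lower in both resveratrol pairs, with a median of -0.19, and 13 were higher and 9 lower in Sirt1 KO, with a median of 0.03. This list shares Gpr17, Sox10, Olig1 and Olig2 with the precursor list, so their counts are not separate. Hes5, a Notch effector that holds back differentiation, rose by 1.65 in Sirt1 KO and fell by 1.80 in resveratrol with the replicate term (adjusted p = 0.0183 and 0.0255). Its adjusted p was 1 for both without that term, and 0.339 and 0.941 with the slide as the term. In DMSO minus WT the 35 regulators went both ways. Without overlap 9 were higher and 6 lower, against 12.4% and 13.8% of all genes, and their median was 0.12. Nkx6-2, a homeodomain factor of the oligodendrocyte lineage, was 2.95 higher in DMSO (SE 0.66). Hes5 was 2.43 higher (SE 0.35), Gpr17 2.06 (SE 0.95) and Sox10, a transcription factor kept throughout the lineage, 1.57 (SE 0.84). None of these passed the threshold in the model with neither the replicate nor the slide term.

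**Figure D4:**
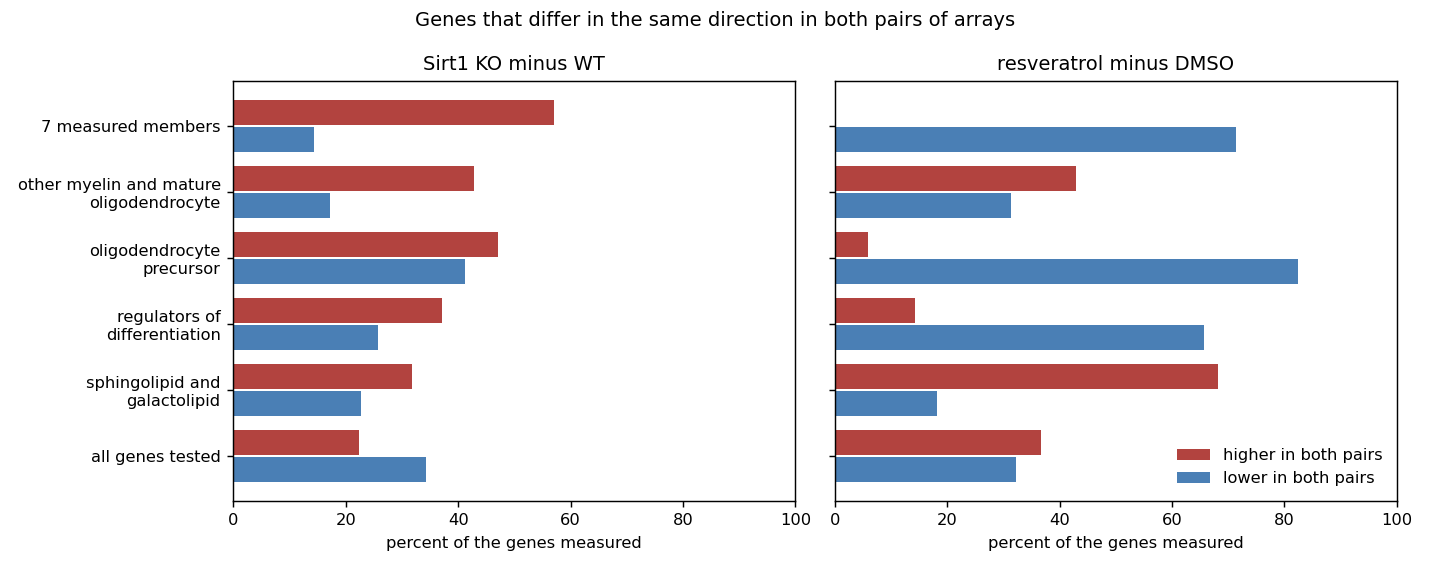
Percent of the measured genes of each list (horizontal axis) that were higher (red) or lower (blue) in both pairs of arrays, for Sirt1 KO minus WT and resveratrol minus DMSO, with all genes tested at the bottom. Under resveratrol 14 of 17 precursor genes and 5 of 7 members (Mbp only by the probe used) were lower, against 32.2% of all genes, while 15 of 22 sphingolipid genes were higher. Of the members, Fa2h and Mal were well above background on both arrays only in Sirt1 KO and DMSO. The precursor and regulator lists share some genes.

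In bulk RNA, fewer cells of a type and less RNA per cell cannot be told apart. The summed level of the precursor list, as linear signal relative to the 75th percentile, was 272 to 298 in WT, 271 to 276 in Sirt1 KO, 302 to 306 in DMSO and 233 to 268 in resveratrol. Both resveratrol arrays thus lay below both DMSO arrays in precursor markers as they did for Cnp, Gal3st1 and Ugt8a; the part of this in the members' values was not tested. Among 11 astrocyte genes measured, 7 were higher and 1 lower in both Sirt1 KO pairs, against 22.3% and 34.2% of all genes, with a median of 0.62 against -0.04, and their summed level was 110 to 184 in WT, 174 to 288 in Sirt1 KO, 219 to 244 in DMSO and 243 to 245 in resveratrol. Their median had the sign of the Fa2h and Cnp differences in that comparison, and their part in the members' values was not tested.

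Schwann cells express most of the members too, and of 11 of their markers 7 were measured, with a summed level of 12.1 to 20.7 in WT, 11.3 to 18.7 in Sirt1 KO, 7.51 to 11 in DMSO and 10.9 to 16.4 in resveratrol. In both pairs 2 of the 7 were higher and 3 lower in Sirt1 KO (median -0.32), and 5 were higher and 1 lower in resveratrol (median 0.39). Neuronal, microglial and endothelial lists had summed levels of 8.66 to 19.2, 0.172 to 0.526 and 0.582 to 1.47 over all groups, and Cdh5, Cldn5, Pecam1 and Tek of the endothelial list were well above background on no array.

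The genes outside the 9 whose profile over the 8 arrays lay closest to the members' mean profile were Hey1, Rpgr, Manea, Skil and Nppa. Their root mean square distances, after each profile was centred on its own mean, were 0.13, 0.132, 0.144, 0.145 and 0.147 log2 units. Those arrays share slides, strains and sexes with the grouping, so the likeness is a description of 8 arrays.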

How the data were processed

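Total RNA of 8 samples was labelled with Cy3 and hybridised to one-colour Agilent arrays. Per the file headers, the deposited scanner intensity is gProcessedSignal of Feature Extraction 10.7.3.1, background-corrected by that software; the submitters' processing notes name version 10.7. The deposited table of log2 values, used only as an alternative, behaved as quantile normalized in 2 sets (slides 1 and 2, and slide 3). When each column was sorted, 99.5% and 100% of ranks held values within 0.01 of each other in these sets. The headers name mm9, so no coordinate of theirs is printed.

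Here, log2 intensity was centred on each array's 75th percentile over spots that are not controls. Outlier-flagged spots were dropped and spots of a probe averaged. Of 41174 probes, 26918 matched a RefSeq symbol, and 26360 of all probes were well above background on both arrays of a group. The brightest kept probe stood for its gene. Differences were fitted with limma 3.58.1 (R 4.3.3; 4 group means, intensity trend) over 13305 genes with Benjamini-Hochberg adjustment at 0.05. The scripts were tested on simulated data. No 2 arrays held the same values.

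A second model added the replicate number within each arm: by the labels it is the sex in the WT and Sirt1 KO arm, and by the headers the slide in the DMSO and resveratrol arm. Only 2 arrays a group limit precision. The members and all gene lists were chosen with earlier results of these data known, and 1 gene of the myelin list is not reported here. All 9 members are named with their values; of each list, at most 3 genes a comparison with the widest difference and pairs of the same sign; and the 5 closest profiles. Alternatives were other normalizations, filters, probe rules, models, slides and left-out arrays.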

Additional observations from a re-analysis of the deposited data

Results flagged for a closer look

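For 3 members and 6 of the list genes examined by name, both Sirt1 KO pairs lay on one side of 0 and both resveratrol pairs on the other. Pairs of the same sign in a comparison were a condition for naming a list gene. The number of list genes therefore cannot be set against a share of all genes. Of the 3 members, Fa2h was tested only through Sirt1 KO and DMSO, the groups in which it read higher. Among all genes tested 6.16% were higher in both Sirt1 KO pairs and lower in both resveratrol pairs, the direction of all but Cers4 here, so the pattern is not confined to these genes. The test of that difference, (Sirt1 KO minus WT) minus (resveratrol minus DMSO) in limma, gave an adjusted p of 1 for all 9 without the replicate term. Among the members it was 2.57 for Fa2h, 1.48 for Gal3st1 and 0.95 for Cnp (unadjusted p of 0.0937, 0.0106 and 0.017). Among the other genes it was 3.45 for Hes5, 3.11 for Gpr17, 2.02 for Lims2, 1.83 for Sox10, 0.45 for Bcas1 and -1.22 for Cers4. With the replicate term the adjusted p was 0.00818 for Hes5 and 0.029 for Gpr17, and it was 0.117 for Lims2, 0.0629 for Sox10, 0.367 for Bcas1 and 0.101 for Cers4. With the slide as the term no gene was called for this difference, and the adjusted p was 0.628 for Hes5 and 0.635 for Gpr17. With normexp on the raw median signals the difference was 0.28 for Fa2h, 0.45 for Gal3st1 and 1.24 for Cnp.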

How the results depend on the processing

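The directions of all members, and 0 genes called in both arms, were the same under quantile normalization, median centring, the deposited table, no brightness filter, no intensity trend and a fit of only the 4 arrays compared. Averaging a gene's probes turned Mbp to 0.17 in Sirt1 KO minus WT and to 0.03 in resveratrol minus DMSO. The slide as a block turned Mbp and Mag to 0.03 and -0.16 in Sirt1 KO minus WT. The 2 normexp settings were chosen after seeing the data, since the planned one, on mean signals, was not run. With normexp on median signals the members' median became -0.11 in Sirt1 KO minus WT (Mal -0.86, Gal3st1 -0.11) and -0.42 in DMSO minus WT (Mal -0.97, Gal3st1 -0.09, Fa2h -0.50). It turned Tppp3 to -0.71 in Sirt1 KO and Mal to 0.13 in resveratrol. With 1 background per array Mbp was 0.01 in Sirt1 KO, Mal 0.15 in resveratrol, and the members' median -0.19 in resveratrol and 0.32 in DMSO minus WT. That last median was also 0.46 with probes above background on all 8 arrays, 0.46 with probes averaged and 0.51 with the slide block. The cause of these shifts was not tested. Genes called in DMSO minus WT numbered 11, but 22 with quantile normalization, 4 with the all-array filter, 6 with only the 4 arrays, 135 with the slide block and 4 with normexp on median signals.

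With the replicate block 26 genes were called in Sirt1 KO minus WT, 57 in resveratrol minus DMSO, 1517 in DMSO minus WT and 36 for the difference between the first 2, and Cnp in DMSO minus WT was the only member call. DMSO and WT arrays are not paired, so that block overstates the evidence in DMSO minus WT. The pairing check gave correlations of replicate deviations of 0.736 for WT with Sirt1 KO and 0.834 for DMSO with resveratrol, but also 0.596 for WT with DMSO, and with 2 replicates a group it cannot separate pairing from the split between brighter and dimmer arrays.

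Leaving out each array in turn (a lone array was assumed to vary like the other groups) gave 0 to 5 genes called in Sirt1 KO minus WT, with 5 without Sirt1 KO 1 and 3 without Sirt1 KO 2. It gave 0 in resveratrol minus DMSO, 0 to 4 in DMSO minus WT and 0 to 3 for the difference, with 3 without Sirt1 KO 2. The members' medians ranged from 0.29 to 0.74, from -0.68 to -0.21 and from 0.48 to 0.65. In Sirt1 KO minus WT Mbp ranged from -0.93 to 0.85, Mag from -0.68 to 0.99, Ugt8a from -0.87 to 0.08 and Fa2h from 0.54 to 2.47. In resveratrol minus DMSO Mbp ranged from -0.68 to 0.11, Mal from -0.57 to 0.05, Mag from -0.21 to 0.44 and Fa2h from -2.08 to -0.04. Mag ranged from -1.36 to 0.31 in DMSO minus WT. Signal over background limits Mal, Fa2h, Mog and Opalin, which lay near or under background on some or all arrays.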
